A study of Mus musculus with 12 samples.

Results

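Sprr1a, 5 annexins (Anxa1, Anxa2, Anxa3, Anxa5 and Anxa7), 3 S100 genes (S100a6, S100a10 and S100a11) and the thymosin gene Tmsb10 form a set of 10 genes whose products act at the membrane and the actin cytoskeleton of stressed cells. They are 10 of the 14188 genes of the protein-coding table, and 20 of its 29883 transcripts belong to them. The set was chosen on its FPKM in these same livers, which earlier results had shown to be lower in the PZH group, so their differences between the groups are given as values, with no p and no count of calls.

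Liver RNA of 12 mice was sequenced, 6 of the PZH group and 6 of the control group. Both groups were male mice, 6 weeks old at the start, whose strain the labels spell C57BL/8 and the study's methods C57BL/6J. All received 2 intraperitoneal injections per week of CCl4 in corn oil, at 10 µl/g of the mixture, a solvent that injures hepatocytes and leads to fibrosis. By gavage the PZH group was given 0.25 mg/g of PZH (Pien Tze Huang), a traditional medicine from China, every day, the control group was given water, and livers were taken in week 8. No liver without CCl4 is analysed here, so the levels of the control group are those of untreated injury and not of healthy liver. The mice are separate animals, each number below is a mean or range over 6 of them, and a whole liver sample cannot tell fewer cells of a type apart from less RNA per cell.

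Annexins are proteins that bind membranes when calcium rises and help to seal and move them, and several S100 proteins are small calcium sensors that bind annexins. Anxa2 with S100a10, and Anxa1 with S100a11, are known protein partners. Sprr1a is a small proline-rich protein of the cornified envelope of skin, known as an injury-induced gene outside skin, and Tmsb10 binds actin monomers. AP-1, a dimer of Jun and Fos family proteins, is a known regulator of genes of this kind in stressed epithelium.

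The region before the start of 3 of these genes is shown because it holds the AP-1 letters TGAGTCA, searched on the other strand as TGACTCA, and because genes of AP-1 subunits are among those compared further on. RefSeq windows on GRCm38.p6, from 250 bases before to 50 after a start, were found for 8 of the 10 genes. S100a10 and Anxa3 had no window. Within the 250 bases before the start, Sprr1a and S100a11 each held 2 matches and Anxa2 held 1, in capitals here with 30 bases on either side, 5′ to 3′ on the strand of the gene.
Sprr1a, chr3:92485961-92486057, minus strand: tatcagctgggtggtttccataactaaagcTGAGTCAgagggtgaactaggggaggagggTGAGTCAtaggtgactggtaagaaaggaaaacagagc
S100a11, chr3:93520330-93520494, plus strand: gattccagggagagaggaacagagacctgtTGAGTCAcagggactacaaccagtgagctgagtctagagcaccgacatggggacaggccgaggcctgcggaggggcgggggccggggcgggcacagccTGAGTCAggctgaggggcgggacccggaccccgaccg
Anxa2, chr9:69453558-69453624, plus strand: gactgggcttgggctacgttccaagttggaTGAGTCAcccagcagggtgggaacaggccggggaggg
The matches of Sprr1a began 146 and 116 bases before its start, those of S100a11 began 136 and 38 bases before, and that of Anxa2 began 95 bases before. Of all 32851 RefSeq windows, 4.46% held TGAGTCA and 0.167% held it more than once. The 8 genes had 11 of these windows, and 3 of the 11 held TGAGTCA. The looser letters TGANTCA, which include TGAGTCA, were found in 6.75% of windows and before the same 3 genes. The Tead letters GGAATG, present in 12.6% of windows, were found before Anxa1 only among the 8 genes. The TATA box letters TATAAA, present in 12.4%, were found before the RefSeq start of Sprr1a, Anxa2 and Anxa1. The starts of these windows lie inside the genes as GENCODE annotates them, by 14 bases for Sprr1a, 8 for S100a11, 63 for Anxa2 and 273 for Anxa1. Counted from the GENCODE start, all 5 TGAGTCA matches still lie before the gene, that of Anxa2 from 32 bases before it, whereas the TATAAA of Anxa2 and both matches of Anxa1 lie within the gene. These are matches of letters, and binding was not measured.

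Levels are given as FPKM, fragments per kilobase of transcript scaled to library size, summed over the protein-coding transcripts of a gene, so that genes can be compared per length. Differences are PZH minus control on the log2(FPKM + 1) scale. Every one of the 10 genes had a lower mean in the PZH group, by 13.6-fold for Sprr1a, 3.15-fold for Anxa2, 2.48-fold for S100a6 and 2.03-fold for S100a10, and by less than 2-fold for the other 6. For 7 of the 10, all 6 PZH mice lay below all 6 control mice, which holds for 17.9% of all genes. This contrast chose the genes, so nothing is read from that count. The plot of gene FPKM by mouse shows the values.

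**Figure D1:**
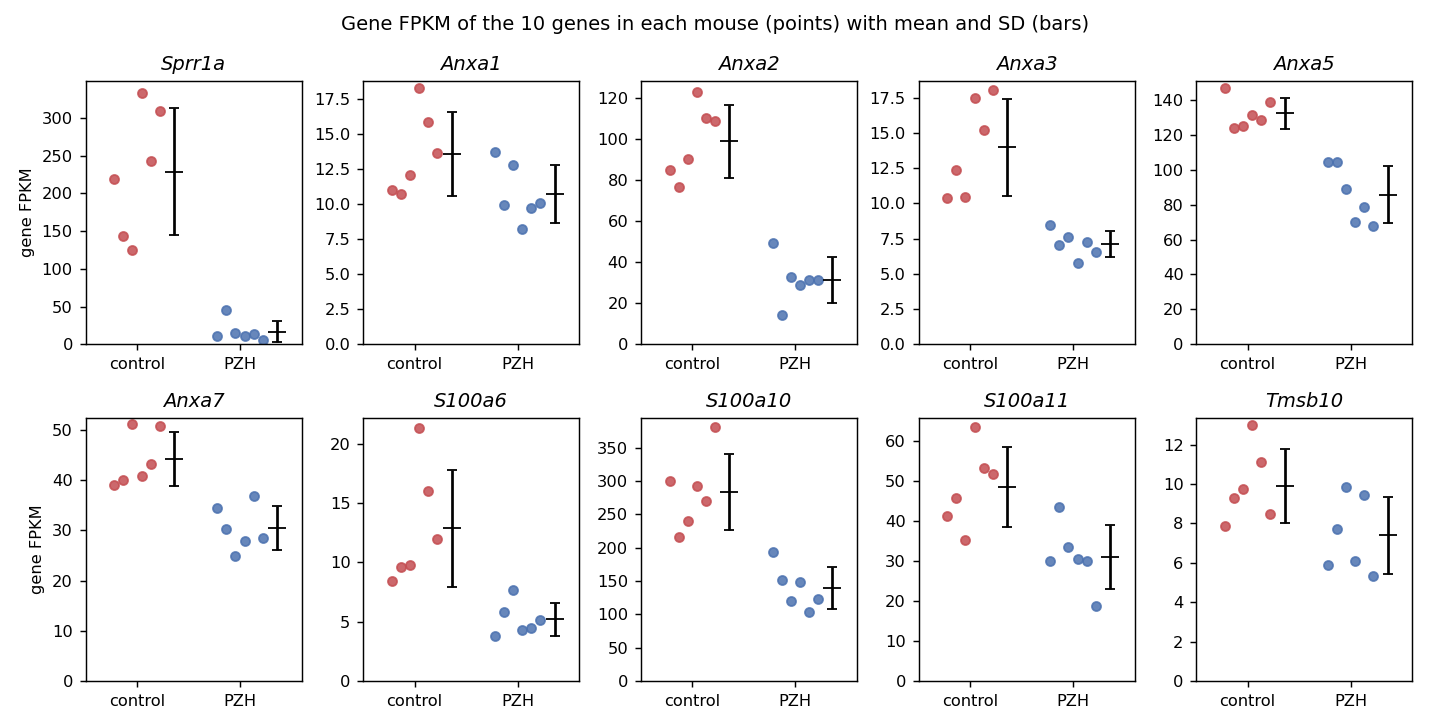
Gene FPKM (y axis, linear and from 0) of each of the 10 genes in 6 control mice and 6 PZH mice, 1 point per mouse in the order of the mouse numbers, with the group mean and SD as a black bar. The groups do not overlap for Sprr1a, Anxa2, Anxa3, Anxa5, Anxa7, S100a6 and S100a10, and they do for Anxa1, S100a11 and Tmsb10.

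Sprr1a (ENSMUSG00000050359, chr3:92483952-92485895 of GRCm38, minus strand, 1 transcript with 2 exons) stood furthest apart. Its FPKM in the control mice ran from 125 to 333 with a median of 231, and in the PZH mice from 6.16 to 45.5 with a median of 12.2. The group means were 229 ± 84.4 (SD, n = 6) for control and 16.8 ± 14.4 (SD, n = 6) for PZH, and the log2 difference was -3.88 with an SE of 0.39. The PZH group therefore held 7.34% of the mean level of the control group. PZH mouse 2 was the one PZH mouse above 15, with 45.5 against 14.2 in the next mouse, yet it too lay far below the lowest control mouse at 125. Without that mouse the log2 difference was -4.21, and over all mice left out in turn it ranged from that value to -3.67. The coefficient of variation of Sprr1a was 85.6% among PZH mice and 36.9% among control mice, so the gene that differed most also varied a great deal within each group.

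Among the annexins, Anxa2 (chr9:69453620-69491795, plus strand), a membrane protein that recruits plasminogen to the cell surface together with S100a10, differed most. Its FPKM ran from 76.5 to 123 with a median of 99.6 in the control mice and from 14.3 to 49.3 with a median of 31.3 in the PZH mice. The means were 98.9 ± 17.8 (SD, n = 6) and 31.4 ± 11.2 (SD, n = 6), and the log2 difference was -1.69 with an SE of 0.23. The lowest PZH value, 14.3, was that of mouse 2, the mouse with the most Sprr1a, and without it the log2 difference of Anxa2 was -1.49. Anxa3 (chr5:96793339-96845966, plus strand), an annexin known from neutrophils, lay at 10.4 to 18.1 in the control mice (median 13.8) and at 5.79 to 8.50 in the PZH mice (median 7.17), a log2 difference of -0.86 with an SE of 0.14.

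Anxa5 (chr3:36448923-36475894, minus strand), which binds phosphatidylserine on dying cells, lay at 124 to 147 in the control mice (median 130) and at 67.5 to 104 in the PZH mice (median 84.0). Its log2 difference was -0.64 with an SE of 0.11. It was the steadiest of the 10 genes in the control group, with a coefficient of variation of 6.69%. Anxa7 (chr14:20455260-20480133, minus strand), an annexin of secretory granules, lay at 39.1 to 51.2 in the control mice (median 42.1) and at 24.9 to 36.9 in the PZH mice (median 29.5), a log2 difference of -0.52 with an SE of 0.10. Anxa1 (chr19:20373428-20390944, minus strand), the anti-inflammatory ligand of formyl peptide receptors, lay at 10.7 to 18.3 in the control mice (median 12.9) and at 8.26 to 13.7 in the PZH mice (median 10.03). Its log2 difference of -0.31 with an SE of 0.14 was the smallest of the 10, and 2 PZH mice lay at or above the lowest control mouse.

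Of the S100 genes, S100a10 (chr3:93555080-93564643, plus strand), the partner of Anxa2, was the most abundant of all 10 genes in both groups. It lay at 216 to 381 in the control mice (median 281) and at 104 to 193 in the PZH mice (median 135), with a log2 difference of -1.02 and an SE of 0.16. S100a6 (chr3:90612882-90624181, plus strand), also called calcyclin and known from proliferating and fibroblastic cells, lay at 8.43 to 21.3 in the control mice (median 10.9) and at 3.78 to 7.69 in the PZH mice (median 4.79), with a log2 difference of -1.12 and an SE of 0.21. S100a11 (chr3:93520488-93526287, plus strand), the partner of Anxa1, lay at 35.3 to 63.6 in the control mice (median 48.7) and at 18.6 to 43.5 in the PZH mice (median 30.3). Its log2 difference was -0.64 with an SE of 0.18, and PZH mouse 2, at 43.5, was the single PZH mouse within the control range.

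Tmsb10 (chr6:72957347-72958748, minus strand) was the least abundant of the 10 in the control group. It lay at 7.87 to 12.98 in the control mice (median 9.52) and at 5.31 to 9.86 in the PZH mice (median 6.91). The log2 difference was -0.39 with an SE of 0.15, and 2 PZH mice lay within the control range.

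Dividing each mouse by a median-ratio scale factor moved the median log2 difference of all genes by 0.11, from -0.11 to -0.00. All 10 differences stayed below 0 under it, with a median of -0.57 over the 10 genes in place of -0.75. Sprr1a was then at -3.70, Anxa2 at -1.50, Anxa7 at -0.34 in place of -0.52, Tmsb10 at -0.22 and Anxa1 at -0.13.

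The order of the 10 levels was not the same in the 2 groups. In the control group the means ran from S100a10 through Sprr1a, Anxa5, Anxa2, S100a11, Anxa7, Anxa3, Anxa1 and S100a6 down to Tmsb10, and the neighbouring genes whose ranges did not overlap were Anxa5 with Anxa2, Anxa2 with S100a11, and Anxa7 with Anxa3. In the PZH group the order was S100a10, Anxa5, Anxa2, S100a11, Anxa7, Sprr1a, Anxa1, Tmsb10, Anxa3 and S100a6, and only Anxa5 and Anxa2 were neighbours without overlap. Sprr1a thus moved from rank 2 to rank 6, and Anxa5 from rank 3 to rank 2.

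The genes did not rank the mice in one way either. Control mouse 4 had the highest value of its group for 6 of the 10 genes and was among the upper 3 mice for 9. Control mice 1 and 2 had the lowest value for 4 genes each. In the PZH group mouse 1 was highest for 5 genes and mouse 6 lowest for 4, while mouse 2 was highest for Sprr1a and S100a11 and lowest for Anxa2.

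The ratios of partner genes, and of Sprr1a to Anxa2, within a mouse also set PZH mouse 2 apart. The ratio of S100a10 to Anxa2 in FPKM was 2.38 to 3.54 in the control mice (median 2.74) and 3.32 to 10.5 in the PZH mice (median 3.92), where 10.5 was mouse 2 and the other 5 mice reached 5.12 at most. The ratio of S100a11 to Anxa1 was 2.92 to 4.27 in the control mice (median 3.61) and 1.85 to 4.36 in the PZH mice (median 2.84). The ratio of Sprr1a to Anxa2 was 1.39 to 2.84 in the control mice (median 2.39) and 0.197 to 0.431 in 5 PZH mice, with 3.18 in mouse 2. That mouse was therefore above every control mouse in the last ratio, and the other PZH mice were below every control mouse.

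**Figure D2:**
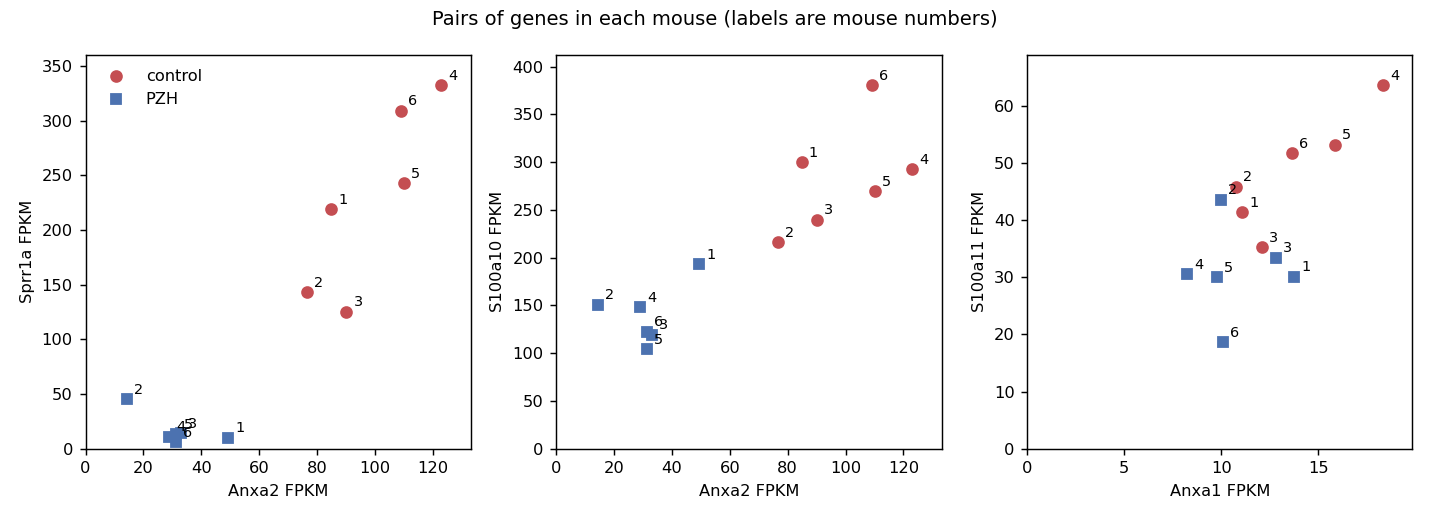
FPKM of Sprr1a against Anxa2, of S100a10 against Anxa2 and of S100a11 against Anxa1 (linear axes from 0), 1 point per mouse, with control mice as circles, PZH mice as squares and mouse numbers beside them. PZH mouse 2 lies at the lowest Anxa2 (14.3) and the highest Sprr1a (45.5) of its group, away from the other PZH mice.

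Whether the genes of a pair varied together between mice of 1 group was asked for 3 pairs in each group, 6 relations in all. These were the partners Anxa2 with S100a10 and Anxa1 with S100a11, and Sprr1a with Anxa2, which are not known partners. The tests were two-sided exact permutation tests over the 720 orders of 6 mice on log2(FPKM + 1). None passed after Benjamini-Hochberg adjustment. Anxa1 and S100a11 in the control mice had Pearson r = 0.814 (exact p = 0.0486, adjusted p = 0.196) and Spearman rho = 0.771 (exact p = 0.103, adjusted p = 0.308), and r = 0.360 (exact p = 0.667) without mice 4 and 5, the farthest in Anxa1, so the high r rests on those mice as far as 4 mice can show. Sprr1a and Anxa2 had r = 0.813 in the control mice (exact p = 0.0653, adjusted p = 0.196) with rho = 0.771 (exact p = 0.103, adjusted p = 0.308), and r = 0.831 without mice 2 and 3. In the PZH mice the same pair had r = -0.795 (exact p = 0.106, adjusted p = 0.211) with rho = -0.314 (exact p = 0.564, adjusted p = 0.846), and r = -0.527 without mice 2 and 6. Anxa2 and S100a10 had r = 0.587 in the control mice (exact p = 0.224, adjusted p = 0.335; rho = 0.371, exact p = 0.497, adjusted p = 0.846) and r = 0.161 in the PZH mice (exact p = 0.815, adjusted p = 0.885; rho = -0.0857, exact p = 0.919, adjusted p = 1). Without the 2 mice farthest in Anxa2 these were 0.401 and -0.704. Anxa1 and S100a11 in the PZH mice had r = 0.0693 (exact p = 0.885, adjusted p = 0.885; rho = -0.0286, exact p = 1, adjusted p = 1), and -0.126 without mice 1 and 3. With 4 mice left, over a narrower range, the smallest p an exact test can give is 0.0833, so no such p could pass.

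The genes whose pattern over the 12 mice was most like that of Sprr1a, once the group means were taken off, were Traf6 (r = 0.96), Fnbp4 (0.95), Abhd2 (0.94), Nup153 (0.93) and Yrdc (0.93), out of 10948 genes with a mean FPKM of at least 1. The most like Anxa2 were Jpt1 (0.93), Hsbp1 (0.92), Mob1a (0.91), Rcl1 (0.90) and Csrp2 (0.90). For Csrp2, Hsbp1 and Mob1a these values lean on the PZH mice, among which mouse 2 is an extreme of Anxa2. Csrp2 had 0.37 in the control mice and 0.98 in the PZH mice, Hsbp1 0.51 and 0.99, and Mob1a 0.68 and 0.96. Jpt1 had 0.90 and 0.93 and Rcl1 had 0.82 and 0.98, high in both groups. The 5 genes most like Sprr1a had 0.84 to 0.98 in the control mice and 0.95 to 0.97 in the PZH mice. PZH mouse 2 is an extreme of Sprr1a as well (45.5 FPKM, next 14.2), so these PZH values can rest on that mouse. These correlations are given as a description, and the points share their libraries. Of the other genes of the set, S100a11 was the nearest to Sprr1a, at rank 59 (r = 0.87), and Anxa1 the nearest to Anxa2, at rank 411 (r = 0.62). Sprr1a with Anxa2 had r = -0.42, which joins 0.81 in the control mice and -0.80 in the PZH mice.

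Most of the 10 genes were measured through 1 transcript. Sprr1a, Anxa1, Anxa5, S100a6 and S100a11 had 1 each in the table, Anxa2-201 made up 92.5% to 99.8% of Anxa2 in every mouse, and S100a10-201 at least 99.56% of S100a10. Tmsb10-203 carried 65.5% to 94.0% of Tmsb10 in the control mice and 81.0% to 97.0% in the PZH mice. Anxa3-201, the transcript with 13 exons, carried 68.0% to 88.9% of Anxa3 in the control mice (median 77.9%) and 45.8% to 87.8% in the PZH mice (median 68.9%), so the groups overlapped. Anxa7 was spread over 3 main transcripts, with median shares of 39.9% for Anxa7-201, 42.3% for Anxa7-202 and 19.9% for Anxa7-207 in the control group and 42.3%, 38.8% and 18.6% in the PZH group. Of these, Anxa7-202, the transcript with 14 exons, had levels without overlap, at 17.8 to 22.3 FPKM in the control mice and 7.47 to 15.6 in the PZH mice. Shares between transcripts of a gene depend on how the assembler split shared reads. In the lncRNA table no transcript lay within 10 kb of any of the 10 genes.

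In the fit over all genes (limma, Benjamini-Hochberg adjusted p under 0.05) 32.1% of genes were called lower and 12.7% higher in the PZH group, and the counts of the lists below stand beside these shares. Of 5 other annexins in the table, 1 was called lower and none higher, and their median log2 difference was -0.11, equal to that of all genes. At this list size 1 of 5 is near the share of all genes. The 1 was Anxa11, which tethers RNA granules to lysosomes, at 5.94 ± 1.29 FPKM (SD, n = 6) in control mice and 3.49 ± 2.099 (SD, n = 6) in PZH mice (limma adjusted p = 0.0484). That call was lost when any of 9 of the 12 mice was left out, with adjusted p = 0.101 without PZH mouse 6. Anxa6, the most abundant other annexin, had 38.7 ± 3.37 (SD, n = 6) and 40.9 ± 4.38 (SD, n = 6), limma adjusted p = 0.487, and was called higher after median-ratio scaling (log2 difference 0.27, limma adjusted p = 0.0212).

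Of 7 other S100 genes, S100a4 fell and S100a13 rose, 1 of 7 each, also near the shares of all genes, with a median log2 difference of -0.09 over the 7. S100a4, a marker of motile fibroblasts and macrophages, had 5.25 to 10.6 FPKM in the control mice and 1.06 to 3.23 in the PZH mice, without overlap, a log2 difference of -1.53 with an SE of 0.19 (limma adjusted p = 5.71e-05). S100a13, which takes part in release of growth factors without a signal peptide, had 3.27 to 4.76 and 4.38 to 5.86, a log2 difference of 0.30 (limma adjusted p = 0.0134). S100a1, the most abundant of the 7, had 80.6 ± 5.28 (SD, n = 6) and 84.6 ± 9.09 (SD, n = 6). S100a8, a calgranulin of neutrophils, had medians of 12.5 in the control mice and 7.04 in the PZH mice, but 76.0 in PZH mouse 3, and its adjusted p was 0.698 with all mice and 0.0492 without that mouse.

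Of 31 cornified envelope genes, the partners of Sprr1a in skin, 11 were in the table. Of these, 10 were called lower and none higher (all genes 32.1% and 12.7%). Their median log2 difference was -0.58, and 9 were lower after median-ratio scaling. Tgm1, the transglutaminase that links envelope proteins, fell from 19.5 ± 7.97 FPKM (SD, n = 6) to 5.38 ± 2.56 (SD, n = 6), a log2 difference of -1.65 with an SE of 0.28 (limma adjusted p = 0.000509). Its groups overlapped in 1 place, since PZH mouse 2 had 10.5 and the lowest control mouse 9.46. Cstb, a cathepsin inhibitor also found in envelopes, fell from 77.5 ± 13.4 to 41.4 ± 7.98 (SD, n = 6; limma adjusted p = 0.000293). The plakin genes Dsp and Ppl, which tie keratin to desmosomes, fell by 0.83 and 0.58 on the log2 scale (limma adjusted p = 0.000613 and 0.0119). Sprr1b, a close relative of Sprr1a, had 0.611 to 4.15 FPKM in the control mice and 0.0734 at most in the PZH mice, where 3 were listed at 0, with a log2 difference of -1.36 (limma adjusted p = 0.000501). Another 6 of the 11 had a mean FPKM under 1 in both groups, and with a mean FPKM of at least 1 over all mice required, 4 called genes were left. Genes that are in the table mainly through the control mice can hardly be called higher, so 10 of 11 is not on equal terms with all genes. Sprr2a1, Sprr2a2 and Sprr2a3 are near-identical copies whose reads can be shared, so their separate values are uncertain.

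Sprr1a, S100a6, S100a10 and S100a11 lie within 2951762 bp of chromosome 3 (90612882 to 93564643), and Anxa5 is the fifth gene of the set on that chromosome. Of 62 other protein-coding genes annotated in the stretch that these 4 span, 10 were in the table, of which 8 were called lower and none higher (all genes 32.1% and 12.7%), with a median log2 difference of -0.35. These 10 share 6 genes with the cornified envelope list and 2, S100a8 and S100a9, with the other S100 genes, so the lists are not independent. The cornified list did not hold 2 of the genes called lower, Gm9774, which went from 2.13 ± 0.356 to 1.06 ± 0.259 FPKM (SD, n = 6; limma adjusted p = 0.000341), and Lce1d, itself a late cornified envelope gene, listed at 0 in all 6 PZH mice and at 0.0464 to 0.313 in the control mice. With a mean FPKM of at least 1 required, 1 called neighbour was left, and without control mouse 1 the count was 5. Levels this low limit what the neighbours show. A gene that is in the table only through the control mice, as Lce1d is, can be called lower but not higher. The count of 8 of 10 is therefore not on equal terms with the share of all genes. Sprr2b, with 0.739 FPKM on average against 0.107, Sprr2a1, with 0.667 against 0.0985, and Sprr2a2, with 0.423 against 0.0715, were among those called (limma adjusted p = 0.0212, 0.00289 and 0.0443). The call of Sprr2a2 was lost when any of 9 of the 12 mice was left out.

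Most genes of actin and its regulators, with which Tmsb10 acts, were lower in the PZH mice. Of 34 thymosin and actin partner genes in the table, 25 (73.5%) were called lower and 1 higher, against 32.1% and 12.7% of all genes, with a median log2 difference of -0.49. All PZH mice lay below all control mice for 18 of the 34, against 2537 of all 14188 genes (17.9%). After median-ratio scaling, which left 2739 of the 14188 genes lower and 2807 higher, 19 of the 34 were lower. Actg1, cytoplasmic gamma actin, fell from 139 to 305 FPKM in the control mice (median 252) to 39.4 to 58.0 in the PZH mice (median 50.1), a log2 difference of -2.17 with an SE of 0.19 (limma adjusted p = 1.16e-05). Actb, cytoplasmic beta actin and often used as a reference gene, fell from 848 ± 90.0 to 389 ± 83.9 (SD, n = 6; limma adjusted p = 3.46e-05). Tagln2, an actin-bundling protein, and Flna, an actin cross-linker, fell by 1.03 and 0.95 on the log2 scale (limma adjusted p = 8.29e-06 and 0.000335). Arpc4, a subunit of the Arp2/3 complex that branches actin, fell by 0.94 (limma adjusted p = 0.00388), with overlap between the groups. Rdx, which links actin to the membrane, was the 1 that rose, from 28.6 to 42.9 FPKM in the control mice to 43.7 to 65.9 in the PZH mice (limma adjusted p = 0.00271). Tmsb4x, the abundant relative of Tmsb10, had 138 to 239 in the control mice and 101 to 215 in the PZH mice, a log2 difference of -0.38 that did not pass (limma adjusted p = 0.116).

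Binding partners and receptors of the annexins and S100 proteins were mostly lower as well, with 13 of 19 (68.4%) called lower, 1 called higher and a median log2 difference of -0.38. After median-ratio scaling 9 were lower and 2 higher. Plaur, the urokinase receptor, fell from 2.24 to 8.82 FPKM in the control mice (median 6.26) to 0.388 to 1.40 in the PZH mice (median 1.09), a log2 difference of -1.65 with an SE of 0.26 (limma adjusted p = 0.000278). Fpr2 and Fpr1, formyl peptide receptors through which Anxa1 signals, fell by 1.45 and 0.75 (limma adjusted p = 0.000731 and 0.00332), each with overlap between the groups. Ahnak, a giant scaffold that binds the Anxa2 and S100a10 complex, fell from 25.4 ± 5.11 to 15.0 ± 2.01 (SD, n = 6; limma adjusted p = 0.000568), and its relative Ahnak2 fell by 0.70 on the log2 scale (limma adjusted p = 0.00262). Plg, plasminogen made by hepatocytes and the protease precursor that Anxa2 and S100a10 bind, was the 1 called higher, at 333 ± 14.6 against 390 ± 39.9 (SD, n = 6; limma adjusted p = 0.0273). That call was lost without control mouse 6 or any of PZH mice 3, 4, 5 and 6, and with each mouse scaled to an equal sum (adjusted p = 0.116).

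Of 28 membrane repair genes, 17 (60.7%) were called lower and 2 higher, with a median log2 difference of -0.36. After median-ratio scaling 12 were lower and 2 higher. Ehd1, which reshapes endosomal membrane, fell by 0.88, and Capn2, a calcium-activated protease, by 0.84 on the log2 scale (limma adjusted p = 3.76e-05 and 2.67e-05). Bin1, which bends membrane, fell by 0.83 and the ESCRT-III subunits Chmp4b and Chmp2b, which cut damaged membrane away, by 0.79 and 0.57 (limma adjusted p = 3.71e-05, 2.26e-05 and 9.44e-05), all without overlap between the groups. Chmp2a, the most abundant of the list, had 41.3 ± 6.25 and 37.2 ± 4.85 FPKM (SD, n = 6; limma adjusted p = 0.307). The 2 called higher were Ehd3, a relative of Ehd1, and Cavin2, a caveolar coat protein, by 0.44 and 0.33 (limma adjusted p = 0.00554 and 0.0176), named after their values were seen.

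The genes of AP-1 subunits and of Yap and Tead had the largest median of these lists. Of 23, 17 (73.9%) were called lower and none higher, with a median log2 difference of -0.90, and 16 were lower after median-ratio scaling. In 15 of the 23 all PZH mice lay below all control mice, against 2537 of all 14188 genes (17.9%). With an unadjusted limma P under 0.05, 10 of the 23 were 2-fold lower, against 355 of all 14188 genes (2.5%). Atf3, a stress-induced partner of Jun, fell from 13.2 to 30.9 FPKM in the control mice (median 25.5) to 3.01 to 6.51 in the PZH mice (median 5.43), a log2 difference of -2.01 with an SE of 0.20 (limma adjusted p = 2.01e-05). Fos fell from 5.73 ± 3.72 to 0.673 ± 0.222 and Jun from 21.7 ± 8.04 to 6.61 ± 2.73 FPKM (SD, n = 6 each), with log2 differences of -1.86 and -1.57 (limma adjusted p = 0.000177 and 0.000308). Maff, a small Maf protein, and Jund, the most abundant subunit here, fell by 1.62 and 1.10 (limma adjusted p = 0.000217 for each). Ccn1, a matrix protein and a target of Yap, fell from 6.17 to 16.5 FPKM in the control mice to 1.95 to 3.83 in the PZH mice (limma adjusted p = 7.99e-05). Not every gene of the list was called. Tead2, Tead3 and Tead4, named after their values were seen, had limma adjusted p = 0.695, 0.561 and 0.137. Their means were 0.411, 0.111 and 0.390 FPKM in the control mice and 0.371, 0.167 and 0.293 in the PZH mice. The mean of Tead3 was thus higher in the PZH group. At such levels the added 1 makes log2 differences smaller, but calls were still possible. Fosb, also named after its values were seen, had means of 0.302 and 0.0405 FPKM and was called lower (limma adjusted p = 0.0181). Wwtr1, Amotl2 and Batf3, also named after their values were seen, were lower but did not pass (limma adjusted p = 0.0643, 0.0857 and 0.0643). Whether AP-1 acts on the 3 windows printed above was not tested.

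**Figure D3:**
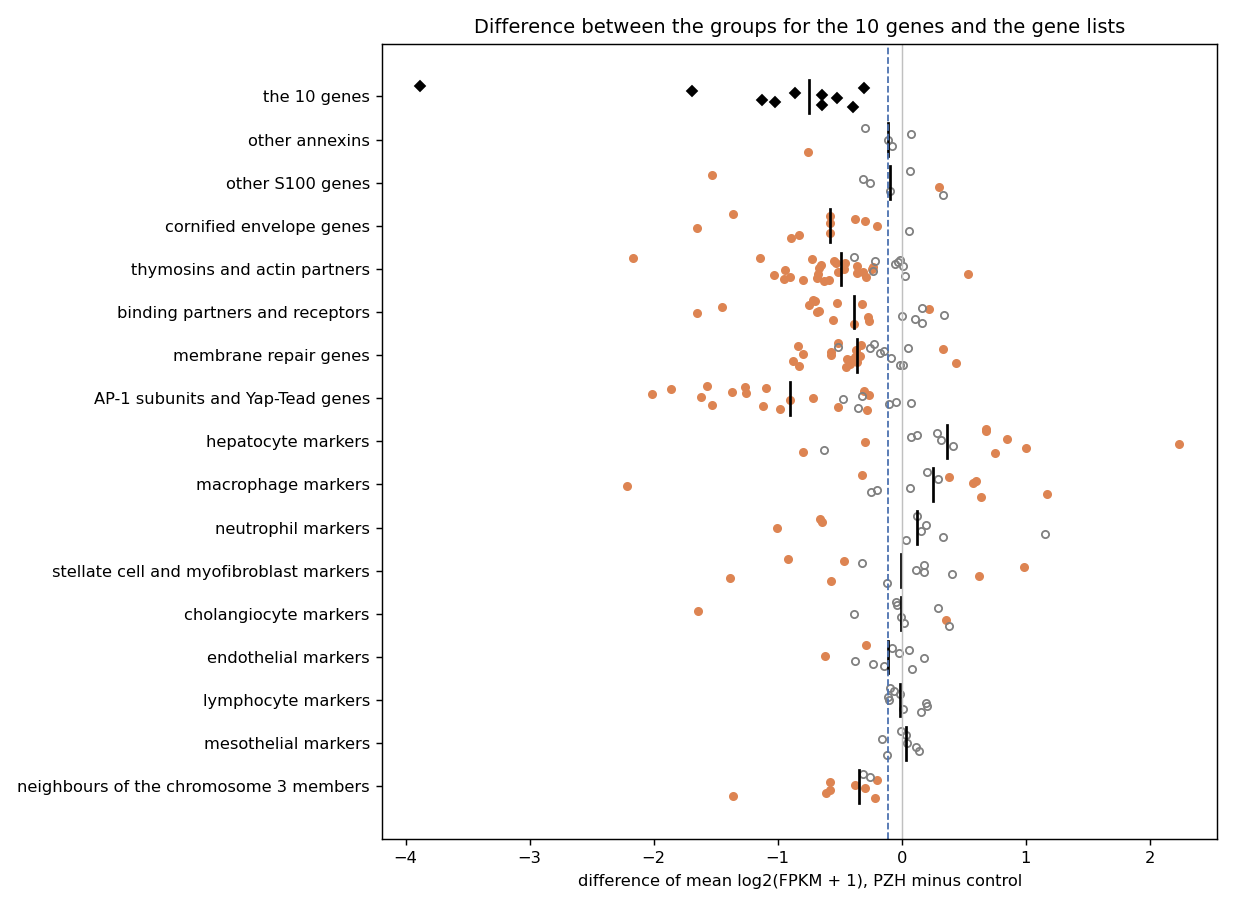
Difference of mean log2(FPKM + 1), PZH minus control (x axis), for the 10 genes (black diamonds, shown without a test) and for each measured gene of the lists (y axis), filled orange where limma's adjusted p was under 0.05 and open grey where it was not. Black bars are list medians and the dashed line is the median of all 14188 genes, -0.11, with the AP-1 and Yap-Tead genes furthest to the left of it at -0.90.

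Markers of liver cell types were set beside these values, and their part in the differences was not tested. Of 14 hepatocyte markers in the table, 6 were called higher and 2 lower, and their summed FPKM ran from 33142 to 44788 in the control mice and from 47835 to 67806 in the PZH mice, without overlap. PZH mouse 2 had the lowest sum of its group. That gap is mostly one of Alb, which made up 83.0% of the difference of the mean sums, and the sum of the 13 others overlapped, at 14662 to 16250 and 14475 to 21444. Alb, albumin, rose from 24059 ± 4039 FPKM to 38437 ± 5471 (SD, n = 6), a log2 difference of 0.68 (limma adjusted p = 0.000697). The 2 that fell, named after their values were seen, were Hpx, hemopexin, from 3727 ± 1043 to 2095 ± 288 FPKM, and Hnf4a, a hepatocyte transcription factor, from 166 ± 7.94 to 135 ± 15.2 (SD, n = 6; limma adjusted p = 0.00145 and 0.00937). Macrophage markers had sums of 408 to 517 in the control mice and 425 to 632 in the PZH mice. Of 12, 2 were called lower and 5 (41.7%) higher, against 32.1% and 12.7% of all genes. Marco and Cd68 were lower, with log2 differences of -2.21 and -0.318 (limma adjusted p = 0.000702 and 0.01998). Gpnmb, Trem2, Clec4f, Vsig4 and Csf1r were higher, by 1.17, 0.64, 0.596, 0.574 and 0.381 (limma adjusted p = 0.000828 to 0.0251). All of these were named after their values were seen. Lyz2, the most abundant, was not called (limma adjusted p = 0.232). Stellate cell and myofibroblast markers had sums of 264 to 392 in the control mice and 325 to 416 in the PZH mice. Of 12, 4 were called lower and 2 higher. Tagln, Acta2, Lox and Des were lower, with log2 differences of -1.38, -0.92, -0.569 and -0.469. Their limma adjusted p were 3.97e-05, 0.0123, 0.00752 and 0.00685, and only Tagln had no overlap between the groups. Reln and Col3a1 were higher, by 0.985 and 0.624 (limma adjusted p = 0.00123 and 0.0146), each with overlap. These too were named after their values were seen. Dcn, the most abundant, was not called (limma adjusted p = 0.400).

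Sums of the other lists overlapped too. Neutrophil markers summed to 13.2 to 24.4 in the control mice and 9.56 to 56.5 in the PZH mice. Of these 9, 3 (33.3%) were called lower and none higher, against 32.1% and 12.7% of all genes, with a median log2 difference of 0.12. The 3 were Mmp9, Cxcr2 and Csf3r, named after their values were seen, each with overlap between the groups. Mmp9 fell from 3.27 ± 0.708 to 1.25 ± 1.04 FPKM, Cxcr2 from 1.27 ± 0.420 to 0.445 ± 0.321 and Csf3r from 4.46 ± 1.11 to 2.56 ± 1.03 (SD, n = 6, limma adjusted p = 0.00235, 0.00290 and 0.0109). Retnlg had 8.23 ± 1.80 and 8.90 ± 4.42 (SD, n = 6), and Ly6g was listed at 0 in 2 mice. Ngp, named after its values were seen, was higher in every PZH mouse than in every control mouse. It had 0.162 ± 0.0478 and 3.68 ± 6.94 FPKM (SD, n = 6), a log2 difference of 1.16 that did not pass (limma adjusted p = 0.0962). With 0.1 as the pseudocount, or without PZH mouse 3, 1 neutrophil marker was called higher. Cholangiocyte markers summed to 104 to 169 and 76.8 to 145, with 1 of 9 lower and 1 higher, Spp1 at 121 ± 22.3 and 94.1 ± 26.9 (SD, n = 6), and Epcam listed at 0 in 1 mouse. Spp1 was the largest part of that sum. Sox9 fell from a mean of 10.7 to 2.73 FPKM (limma adjusted p = 5.15e-06), and Krt23 rose from 0.256 to 0.618. Both were named after their values were seen. Endothelial markers summed to 110 to 125 and 92.8 to 123, with 2 of 10 lower and Clec4g at 35.2 ± 3.64 and 34.8 ± 5.06 (SD, n = 6). None of 9 lymphocyte markers was called, with sums of 4.54 to 8.20 and 5.41 to 8.63, and Cd79b at 2.33 ± 0.659 and 2.78 ± 0.497 (SD, n = 6). None of 7 mesothelial markers was called, with sums of 3.50 to 10.8 and 4.28 to 11.1, Msln at 1.38 ± 0.715 and 1.38 ± 0.796 (SD, n = 6), and Krt5 listed at 0 in 1 mouse. Median-ratio scaling shifted calls in these lists upward, to 9 higher and 1 lower for hepatocyte, 7 and 1 for macrophage, 5 and 4 for stellate cell, 2 and 1 for cholangiocyte, 1 and 1 for endothelial and 2 and 0 for lymphocyte markers. Without control mouse 5 or PZH mouse 6, 1 lymphocyte marker was called higher. No hepatocyte marker was listed at 0 in any mouse, and no marker of any list was at 0 in all 12.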

How the data were processed

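The authors trimmed reads of 150 bp with Trimmomatic, mapped them with HISAT2 to GRCm38 and assembled transcripts with StringTie and Ensembl release 95 (tool names per the labels and the study's methods). The authors deposited FPKM per transcript and mouse in 2 tables, of 29883 protein-coding and 1432 lncRNA transcripts, normalized for length and library size. These are not counts: 9.33% to 11.0% of low values per mouse lay within 0.05 of a whole multiple, near the 10% that spacing gives, so counts were not recovered and the depth is unknown. FPKM sums were 325275 to 370412 per mouse, and log2 values of mice correlated at 0.931 to 0.985.

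FPKM was summed per gene with GENCODE M21, which held 29876 of the transcripts. All 14188 genes were fitted in 1 model on log2(FPKM + 1) with limma 3.58.1 in R 4.3.3, PZH against control, with Benjamini-Hochberg adjustment and no filter. Groups came from the sample titles. The fit was tested on simulated data. Other steps used Python 3.11.15 with scipy 1.17.1, numpy 2.4.6, pandas 2.3.3 and, for plots, matplotlib 3.10.9. In each list of functional partners the called genes with the 5 largest differences and the most abundant gene were named, in each marker list the most abundant gene and those listed at 0 in a mouse, and the 5 genes most like Sprr1a and Anxa2. Of the lymphocyte list 1 gene is not reported here. The members and lists were chosen with earlier results of these data known. Values were recomputed with each mouse left out, with 0.1 as the pseudocount, without genes of mean FPKM under 1, after median-ratio scaling or scaling to an equal sum, and with a block for the mouse number.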

Additional observations from a re-analysis of the deposited data

Results flagged for a closer look

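In 118 groups of 6 mice (59 genes in 2 groups), the gap between an extreme mouse and its nearest neighbour was compared with the whole range of the group, against Dixon's 95% critical value. In 16 groups it was larger, where chance gives about 1 in 20 groups. Among the 10 genes this was so for Sprr1a in PZH mouse 2 (45.5 FPKM, next 14.2; gap 0.795 of the range). The same mouse stood high for Tgm1 (10.5, next 5.21; 0.757), Capn2 (24.3, next 19.4; 0.641) and Krt5 (0.220, next 0.0454; 0.793).

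PZH mouse 3 stood high for S100a8 (76.0, next 8.10; 0.940), Ly6g (0.952, next 0.113; 0.881), Retnlg (17.7, next 8.18; 0.797) and Fpr2 (2.43, next 1.08; 0.734). PZH mouse 4 stood high for Sprr2a1 (0.300, next 0.102; 0.758) and Sprr2a2 (0.248, next 0.0897; 0.639), and PZH mouse 1 low for Ppl (2.67, next 5.24; 0.714).

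In the control group, mouse 4 stood high for S100a8 (30.6, next 13.02; 0.706) and Flna (42.5, next 31.9; 0.643) and mouse 1 for Sprr2b (2.13, next 0.613; 0.774). Control mouse 2 stood low for Actb (672, next 846; 0.719) and control mouse 6 for Plg (304, next 335; 0.804).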

How the results depend on the processing

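All 10 genes stayed lower in the PZH group under every alternative and with each mouse left out. The median-ratio scale factor changed the counts over all genes most, to 2739 lower and 2807 higher against 4560 and 1798, so 49.4% in place of 71.7% of the called genes were lower. The mouse numbers do not pair the mice, with correlations of -0.0784 to 0.0929 between mice of the same number. With the number as a block 4288 genes were lower and 1694 higher, and 1 of the 12 mice correlated best with the mouse of its own number in the other group. The count of lower other annexins was 0 with a pseudocount of 0.1, the median-ratio factor or the block (0 to 1 with each mouse left out), and 1 was higher with the median-ratio factor. The count of lower cornified envelope genes was 4, and of lower neighbours 1, without genes of mean FPKM under 1, and the neighbours were 5 to 8 with each mouse left out. The count of higher binding partners was 0 with a pseudocount of 0.1, an equal sum or the block, 2 with the median-ratio factor, and 0 to 2 with each mouse left out. Lower other S100 genes were 1 to 2. Anxa1 and S100a11 in control mice had r = 0.360 (exact permutation p = 0.667) without the 2 farthest mice, 0.812 (exact p = 0.05) with a pseudocount of 0.1 and 0.775 (exact p = 0.0694) with the median-ratio factor. The cause of these changes was not tested, apart from the fewer genes that the filter leaves. The other 292 values that answer a comparison stayed within 1.5 times (counts) or on the same side of the threshold (correlations), though single genes crossed it. With the median-ratio factor the lower calls went from 25 to 19 for actin partners, from 17 to 12 for membrane repair and from 13 to 9 for binding partners, and without control mouse 1 from 10 to 7 for cornified envelope genes. The lncRNA comparison gave no value, since no transcript lay within 10 kb. The depth behind the FPKM is unknown, so low values have no counting interval.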
